A study of Mus musculus with 8 samples.

Results

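Integrins are the cell-surface receptors that tie lung cells to their matrix, and 10 of their subunit genes were followed here: Itga3, Itga5, Itga6, Itga8, Itgav, Itgb1, Itgb3, Itgb4, Itgb5 and Itgb6. They were chosen by gene symbol, as subunits of lung epithelium and mesenchyme, out of 17234 genes tested. All 10 were measured, by 14 of the 62976 features of the array, and all 10 lay above the filter on dim features. Where a gene had more than 1 feature, the one with the highest mean over all arrays was used.

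The lungs came from newborn mice of the C57Bl/6J background, kept in a chamber at 85% oxygen from postnatal day 0 to day 3. Of the 8 arrays, 4 carry the genotype label Fgf10 +/- (with TG in the title) and 4 are labelled wild-type. Both groups had the oxygen, and no array of pups in room air was analysed here, so each value describes the genotype under oxygen. Fgf10 is a growth factor of the lung mesenchyme, and the series asks what its reduction does to the lung under high oxygen. The nature of the Fgf10 allele, what TG stands for, and whether the pups came from separate litters are not given in the sources used here. P-values therefore measure the spread between these samples.

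The values are log2 intensities, running from 1.65 to 15.99 in the deposited table. Pearson correlations between arrays over named features were 0.977 to 0.985 within groups and 0.976 to 0.987 across them. Fgf10 averaged 8.04 ± 0.20 in the Fgf10 +/- group against 7.81 ± 0.28 in the wild-type group (mean ± SD of 4 arrays each, two-sided exact permutation p = 0.2), and all 10 of its features were higher on average in the former. These features were read in the same 8 samples, so they are not 10 independent readings. It is unknown which part of the gene they read, so Fgf10 does not check the labels, and every direction below rests on the labels. Lung markers were bright, with the surfactant gene Sftpc near the top of the scale at 15.99 in both groups and the type 1 cell gene Ager at 12.18 and 12.32.

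An integrin is a pair of 1 alpha and 1 beta subunit, and the pair decides which matrix protein is bound. Beta 1 joins many alpha subunits, among them alpha 5 for fibronectin, alpha 8 for nephronectin and other RGD-bearing proteins, and alpha 3 and alpha 6 for laminins. Alpha 6 also joins beta 4 in hemidesmosomes, the rivets that anchor epithelium to its basement membrane. Alpha v joins beta 3, beta 5 or beta 6, among others, and binds vitronectin, fibronectin and the latent form of TGF-beta. Alpha v beta 6 of epithelium is known for releasing active TGF-beta in the lung. Alpha 8 marks interstitial fibroblasts and smooth muscle, while beta 4 and beta 6 mark epithelium.

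None of the 10 genes passed the test between genotypes. Calls were made in limma where the p-value, adjusted by Benjamini-Hochberg over all genes, was below 0.05, and by this rule 137 of 17234 genes were called, or 0.795%. At an unadjusted p below 0.05 there were 2 of 10 members, Itga5 and Itgb5, against 11.2% of all genes. The same 2 were the members whose 4 arrays of one group lay wholly apart from the 4 of the other, against 6.64% of all genes, and both were lower in arrays labelled Fgf10 +/-. The sign was negative in 9 of 10 members, the exception being Itga6, while 48.7% of all genes had a negative sign. The median log2 fold change of the members was -0.22, beside 0.01 over all genes. Genes measured in the same lungs are not independent, so these counts describe the members and carry no test of their own.

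**Figure D1:**
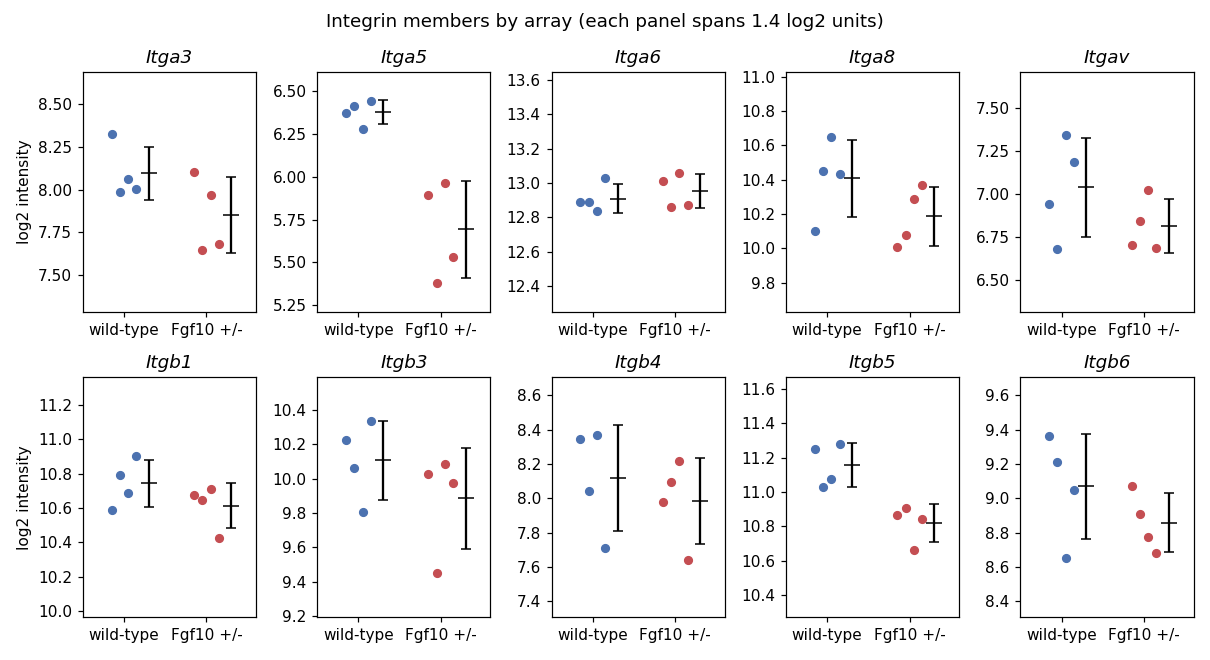
Log2 intensity (vertical axis) of each of the 10 integrin genes in the 4 wild-type (blue) and 4 Fgf10 +/- (red) arrays, with the mean and SD in black; each panel spans 1.4 log2 units. The groups lie apart for Itga5 and Itgb5 and overlap for the other 8 genes.

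The 2 members whose groups lay apart are shown with the 250 bases upstream of their annotated starts (RefSeq, GRCm38.p6), as the sequence context of the genes described next. Each is written 5′ to 3′ along the strand of the gene, with every match to the GC box GGGCGG, on either strand, in capitals. The Itga5 window lies at chr15:103366792-103367041 on the minus strand and the Itgb5 window at chr16:33829415-33829664 on the plus strand.
Itga5: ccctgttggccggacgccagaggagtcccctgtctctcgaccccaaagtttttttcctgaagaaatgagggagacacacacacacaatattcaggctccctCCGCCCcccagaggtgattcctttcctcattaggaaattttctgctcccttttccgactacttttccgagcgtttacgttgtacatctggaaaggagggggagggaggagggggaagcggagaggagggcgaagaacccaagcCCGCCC
Itgb5: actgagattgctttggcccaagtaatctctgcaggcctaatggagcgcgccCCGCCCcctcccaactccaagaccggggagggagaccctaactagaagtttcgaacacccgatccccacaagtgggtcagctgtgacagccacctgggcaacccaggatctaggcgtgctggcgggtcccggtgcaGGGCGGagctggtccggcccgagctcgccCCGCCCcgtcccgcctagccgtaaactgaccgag

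The Itga5 window held 2 GC boxes and the Itgb5 window 3, and 32.7% of 32851 promoter windows of this length hold at least 1. GC content was 55.6% for Itga5 and 65.2% for Itgb5, against a median of 52.4%. Searches of both strands for the CCAAT box (CCAAT, in 33.8% of windows), the TATA box (TATAAA, 12.4%) and the AP-1 site (TGANTCA, 6.75%) matched neither window. None of these motifs contains another, and a match describes letters only. RefSeq windows were matched for 7 of the 10 members. Among members whose groups overlapped, the Itga3 windows held 3 and 1 GC boxes and the Itgb1 window 1. Windows of Itga8, Itgav and Itgb6 held none.

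Itga5 encodes the alpha chain of the main fibronectin receptor. Its values were 5.89, 5.38, 5.97 and 5.53 in arrays 1 to 4 labelled Fgf10 +/- and 6.37, 6.41, 6.28 and 6.44 in wild-type arrays 1 to 4. The wild-type arrays lay close together, with an SD of 0.07, while the Fgf10 +/- arrays were spread more widely, with an SD of 0.28, and all 4 lay below the lowest wild-type array by at least 0.31. The means were 5.69 and 6.38, a log2 fold change of -0.68 (SE 0.21, 95% CI -1.13 to -0.24), which did not pass (limma adjusted p = 0.187). The two-sided exact permutation p was 0.0286, the smallest that 70 assignments of 4 against 4 arrays can give, and it is not adjusted for the 10 genes examined. In size this was a 1.61-fold lower level, and the difference stayed between -0.78 and -0.58 with any 1 array left out.

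Itgb1, the shared beta chain of the fibronectin, nephronectin and laminin receptors, averaged 10.61 ± 0.13 in the Fgf10 +/- group against 10.74 ± 0.13 in the wild-type group (mean ± SD of 4 arrays each), and the groups overlapped. The log2 fold change was -0.13 (95% CI -0.34 to 0.08, limma adjusted p = 0.669), and the lower end of the interval corresponds to a 1.26-fold lower level. Its second feature, at a mean of 9.15, had a difference of -0.23. The first feature gave -0.07 without Fgf10 +/- array 4 and -0.08 without wild-type array 4.

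Itga8, the nephronectin receptor chain of mesenchyme, read 10.01, 10.08, 10.29 and 10.37 in the Fgf10 +/- arrays and 10.10, 10.45, 10.65 and 10.43 in the wild-type arrays. Wild-type array 1 lay among the Fgf10 +/- arrays and the groups overlapped. The log2 fold change was -0.22 (95% CI -0.48 to 0.04, limma adjusted p = 0.537). Leaving out wild-type array 1 gave -0.32 and leaving out wild-type array 3 gave -0.14, neither of them called. Its ligand Npnt, the basement membrane protein nephronectin, had a value of 0.14 (95% CI -0.38 to 0.66, limma adjusted p = 0.882), and -0.07 without wild-type array 1.

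Among the laminin receptor genes, Itga6 had the one positive sign. It is the alpha chain shared by the pairs alpha 6 beta 4 and alpha 6 beta 1, and it lay high on the scale. Its values were 13.01, 12.86, 13.06 and 12.87 in the Fgf10 +/- arrays and 12.89, 12.89, 12.84 and 13.03 in the wild-type arrays. The groups overlapped throughout, with both the lowest and the second highest of the 8 values in the wild-type group. The log2 fold change of 0.04 had a narrow interval (95% CI -0.12 to 0.20, limma adjusted p = 0.887), whose upper end corresponds to a 1.15-fold higher level.

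Itgb4, the long-tailed beta chain that anchors hemidesmosomes to keratin, ranged from 7.64 to 8.22 in the Fgf10 +/- arrays and from 7.71 to 8.37 in the wild-type arrays. The groups overlapped over most of their range. The log2 fold change was -0.13 (95% CI -0.51 to 0.24, limma adjusted p = 0.841), and single arrays moved it, to -0.02 without Fgf10 +/- array 4, -0.05 without wild-type array 3, -0.06 without wild-type array 1, -0.21 without Fgf10 +/- array 3 and -0.27 without wild-type array 4. Itga3, the alpha chain of the laminin receptor alpha 3 beta 1, ranged from 7.65 to 8.10 against 7.99 to 8.32, and 3 of the 4 Fgf10 +/- arrays lay below the lowest wild-type array. Its value was -0.24 (95% CI -0.56 to 0.07, limma adjusted p = 0.581).

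In the alpha v group all 4 members had a negative sign, between -0.34 and -0.21, and none passed. Itgb5, the vitronectin receptor chain found in epithelium, fibroblasts and smooth muscle, read 10.87, 10.91, 10.66 and 10.84 in the Fgf10 +/- arrays and 11.25, 11.03, 11.07 and 11.28 in the wild-type arrays. The groups lay apart by 0.12, with similar SDs of 0.11 and 0.13. The log2 fold change was -0.34 (SE 0.09, 95% CI -0.53 to -0.15), a 1.26-fold lower level. This was the smallest p-value among the 10 genes, and it did not pass (limma adjusted p = 0.114, two-sided exact permutation p = 0.0286).

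Itgb6, the epithelial chain of the TGF-beta activating pair, read 9.07, 8.91, 8.78 and 8.68 in the Fgf10 +/- arrays and 9.36, 9.22, 8.65 and 9.05 in the wild-type arrays. Wild-type array 3 was the lowest of all 8, so the groups overlapped. The difference was -0.21 on the log2 scale (95% CI -0.53 to 0.11, limma adjusted p = 0.657) and its second feature had a difference of -0.27. With 1 array left out the value ranged from -0.35 without wild-type array 3 to -0.11 without wild-type array 1, and it was called in none of these runs.

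Itgav, the alpha chain of all these pairs, ranged from 6.68 to 7.02 in the Fgf10 +/- arrays and from 6.68 to 7.34 in the wild-type arrays. Both the lowest and the highest array were wild-type. Its value was -0.22 (95% CI -0.62 to 0.18, limma adjusted p = 0.714), and -0.46 in its second feature, which was dimmer. It was -0.34 without wild-type array 2 and -0.12 without wild-type array 3.

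Itgb3, the beta chain of the vitronectin receptor of endothelium, smooth muscle and platelets, read 10.03, 9.45, 10.09 and 9.97 in the Fgf10 +/- arrays and 10.23, 10.06, 9.81 and 10.33 in the wild-type arrays. Array 2 labelled Fgf10 +/- stood lowest. Its group difference was -0.22 on the log2 scale (95% CI -0.54 to 0.10, limma adjusted p = 0.62), and -0.08 without that array. The second Itgb3 feature went the other way, by 0.65, at a mean of 3.70. That mean lay above the filter level of 2.76 and above the level of 3.51 at the 50th percentile. Of the 4 members with a second feature Itgb3 was the one whose features differed in sign. Whether that dim feature lay above background is unknown.

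**Figure D2:**
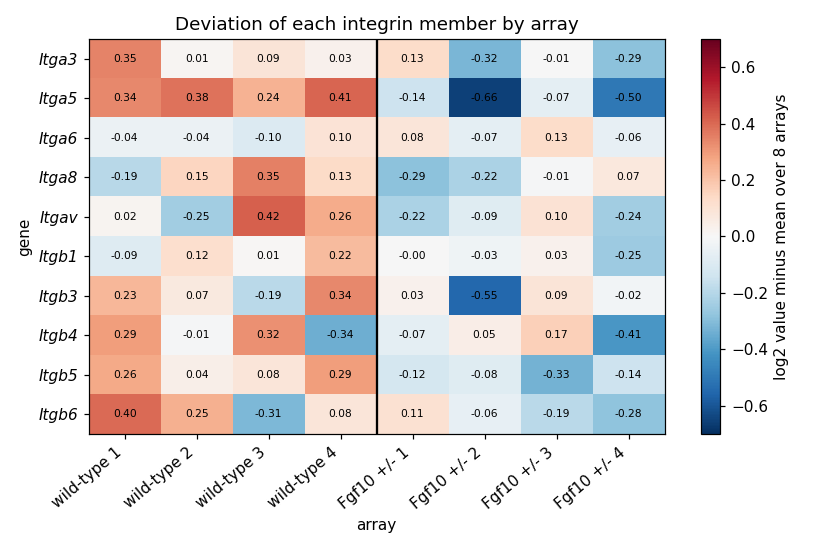
Each of the 10 integrin genes (rows) in each of the 8 arrays (columns) as its log2 value minus the mean of that gene over the 8 arrays; red is higher, blue is lower, and the number is printed in each cell. Wild-type array 4 was above the gene mean for 9 genes, and Fgf10 +/- arrays 2 and 4 for 1 gene each.

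The members did not follow one array. Wild-type array 4 held the highest value for 4 of the 10 genes, wild-type array 3 for 3 and wild-type array 1 for 2, while Fgf10 +/- array 3 held it for Itga6. The lowest values were divided over 6 arrays, and wild-type array 3 was the lowest for Itga6 and Itgb6 although it was the highest for Itga8, Itgav and Itgb4. The median deviation over the 10 genes was lowest in Fgf10 +/- array 4, at -0.25, and highest in wild-type array 1, at 0.25. Fgf10 +/- array 3, at 0.01, was the nearest of its group to the wild-type arrays, of which the lowest was array 2 at 0.05.

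The remaining integrins showed a different balance of signs. Of 17 listed subunits 14 passed the filter, none was called, and 7 had a negative and 7 a positive sign, with a median of -0.01. The difference in balance from the 10 members was not tested. At a limma unadjusted p below 0.05 there were 4 of the 14, against 11.2% of all genes. The groups lay apart in 2 of the 14, Itga9 and Itga10, against 6.64% of all genes. Itgb8, a further alpha v partner, lay below the filter with a mean of 2.22, as did Itgad and Itgae. Itga9, a chain that binds tenascin and is known from muscle and lymphatic valves, read 10.04, 9.88, 10.04 and 9.85 against 9.67, 9.80, 9.66 and 9.52, with no overlap and a value of 0.29 (SE 0.10, limma adjusted p = 0.233). The collagen receptor chain Itga10 also had groups that lay apart, at -0.41 (SE 0.17, limma adjusted p = 0.368) and -0.27 without wild-type array 3, and the collagen and laminin receptor chain Itga1 had -0.31 (SE 0.13, limma adjusted p = 0.413). Itgax, the CD11c chain of alveolar macrophages and dendritic cells, had 0.53 (SE 0.20, limma adjusted p = 0.312). Array 3 labelled Fgf10 +/- was at 8.17 and the other 3 of its group were between 8.99 and 9.27; without it Itgax was called, at 0.77 (limma adjusted p = 0.0365, with a range of 0.0334 to 0.526 over 19 alternative settings).

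**Figure D3:**
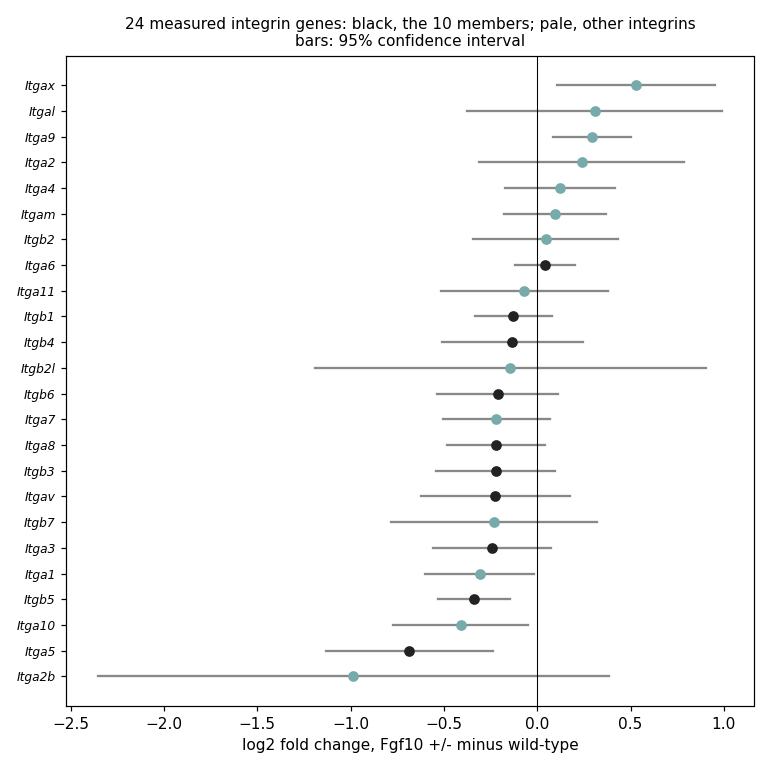
Log2 fold change, Fgf10 +/- minus wild-type (horizontal axis), with its 95% confidence interval for the 24 integrin genes that passed the filter (vertical axis), the 10 members in black and the others in a pale colour. No gene was called. The intervals leave out 0 for the members Itga5 and Itgb5, and for Itga1, Itga9, Itga10 and Itgax among the others.

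The ligands of these receptors held the changes that passed. Of 18 listed ligands 17 were measured, 2 were called lower, Postn and Spp1, none was called higher, and 15 were not called. The share called lower over all genes was 0.569%. The median of the list was -0.20, 15 of 17 had a negative sign, and in 5 the groups lay apart, against 6.64% of all genes, each of the 5 lower in arrays labelled Fgf10 +/-. The list was chosen with earlier results of these data known, so these counts describe it and carry no test.

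Postn encodes periostin, a matrix protein of fibroblasts that binds alpha v beta 3 and alpha v beta 5. It read 10.99, 10.93, 10.92 and 11.21 in the Fgf10 +/- arrays and 11.41, 11.69, 11.49 and 11.39 in the wild-type arrays. Every Fgf10 +/- array lay below every wild-type array, and Postn fell by 0.48 on the log2 scale (SE 0.09, limma adjusted p = 0.0307). Leaving out each of the 8 arrays in turn kept the call 2 times, without Fgf10 +/- array 4 and without wild-type array 1. With the replicate number as a block it was not called (limma adjusted p = 0.071), and over all 19 alternative settings it was called in 9, with adjusted p from 0.0203 to 0.224.

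Spp1 encodes osteopontin, a ligand of alpha v integrins made by macrophages and injured epithelium. It read 5.23, 5.36, 5.14 and 5.01 in the Fgf10 +/- arrays and 8.77, 7.12, 6.28 and 6.80 in the wild-type arrays. The wild-type values were widely spread, with array 1 the highest, and the fall of -2.06 (SE 0.40, limma adjusted p = 0.0307) was -1.55 without that array. Leaving out single arrays kept the call 2 times, without wild-type array 1 or 3, and it was called in 11 of the 19 alternative settings, with limma adjusted p from 0.0102 to 0.223. Beside it, all 6 macrophage markers had a negative sign, none was called, and their median was -0.60. The summed macrophage level was 12.25 to 12.39 in the Fgf10 +/- arrays and 12.41 to 12.87 in the wild-type arrays (log2 of the summed intensities), the dimmest marker being Cd68 at a mean of 4.30. This sum was dominated by Csf1r, at a mean of 12.03 against 12.28 (limma adjusted p = 0.321). The groups lay apart for Csf1r and overlapped for the other macrophage markers. The part of these cells in the Spp1 value was not tested. In whole lung, fewer cells of a type and less RNA per cell cannot be told apart.

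Among the ligands that did not pass, thrombospondin 1 (Thbs1), which activates latent TGF-beta, had -0.48 (SE 0.11, limma adjusted p = 0.0572). Fibronectin (Fn1), the ligand of alpha 5 beta 1, read 14.21, 14.25, 14.27 and 14.24 in the Fgf10 +/- arrays and 14.38, 14.69, 14.45 and 14.85 in the wild-type arrays, a difference of -0.35 with no overlap (SE 0.09, limma adjusted p = 0.122). Without wild-type array 1, Fn1 and the microfibril gene Fbn1 were called too, at -0.42 and -0.46, which made 4 called ligands; over the 19 alternatives the limma adjusted p of Fn1 ranged from 0.0379 to 0.405. Without wild-type array 3 Thbs1 was called, at -0.54, with limma adjusted p from 0.0417 to 0.27 over the alternatives. The latent growth factors on which the alpha v pairs act were Tgfb1 at -0.08 (95% CI -0.35 to 0.20) and Tgfb3 at -0.22 (95% CI -0.50 to 0.05). With 1 array left out Tgfb1 ranged from -0.13 to -0.02, and Tgfb3 from -0.33 to -0.12.

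**Figure D4:**
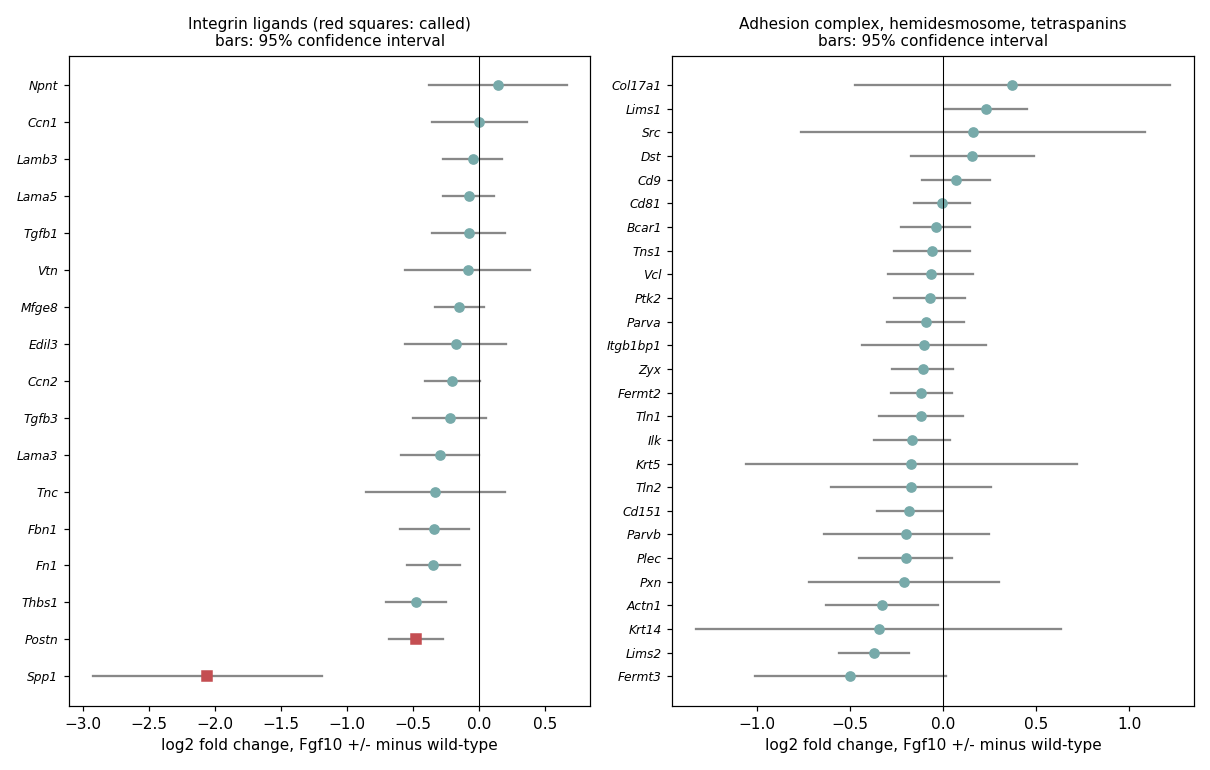
Log2 fold change, Fgf10 +/- minus wild-type (horizontal axes), with 95% confidence intervals for 17 integrin ligands (left) and for 18 adhesion complex and 8 hemidesmosome and tetraspanin genes (right). The 2 called genes, Spp1 and Postn, are red squares on the left; no gene on the right was called.

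On the inner side of the membrane nothing passed. Of 19 listed genes of the adhesion complex, which couples integrin tails to actin, 18 were measured and none was called. Of these, 16 had a negative sign, with a median of -0.11. In 2, Lims2 and Fermt3, the groups lay apart, against 6.64% of all genes. Lims2, an adaptor (PINCH2) that binds integrin-linked kinase, read 10.35, 10.52, 10.56 and 10.30 in the Fgf10 +/- arrays and 10.88, 10.83, 10.70 and 10.80 in the wild-type arrays. The groups lay apart, and its value was -0.37 (SE 0.09, limma adjusted p = 0.0802). The paralogue Lims1 had the opposite sign, 0.23 (SE 0.10, limma adjusted p = 0.419). The actin cross-linker Actn1 had -0.33 (SE 0.14, limma adjusted p = 0.387) and the blood cell kindlin Fermt3 -0.50 (SE 0.24, limma adjusted p = 0.464). The integrin activators talin 1 (Tln1) and kindlin 2 (Fermt2) each had -0.12, with intervals from -0.34 to 0.11 and from -0.28 to 0.05. Tln1 was -0.01 without wild-type array 4 and -0.19 without wild-type array 3.

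The 8 genes of hemidesmosomes and tetraspanins were all measured and none was called, with a median of -0.09. Cd151, the tetraspanin that binds alpha 3 and alpha 6 integrins, had -0.18 (SE 0.08, limma adjusted p = 0.427). Plectin (Plec), which links beta 4 to keratin, had -0.20 (SE 0.12), dystonin (Dst) 0.16 (SE 0.15) and collagen XVII (Col17a1) 0.37 (SE 0.39), with limma adjusted p between 0.56 and 0.794. Plec was -0.07 without wild-type array 4 and -0.31 without wild-type array 1.

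Cell type markers beside the members moved in both directions. Of 5 alveolar type 2 markers 3 were called higher (median 0.48), against 0.226% of all genes. All 5 pan-epithelial markers had a positive sign with none called (median 0.33). Of the laminin receptor and epithelial members, Itga6 had a positive sign, at 0.04, and Itga3, Itgb4 and Itgb6 had negative signs. Alveolar type 1 markers had a median of -0.06, with none of 5 called (summed level, as log2 of the summed intensities, 14.79 to 15.18 in Fgf10 +/- against 14.86 to 14.99 in wild-type arrays). In the same order the summed level of the pan-epithelial markers was 14.14 to 14.24 against 13.92 to 14.22. That of the type 2 markers was 16.89 to 16.92 against 16.72 to 16.87, but it was dominated by Sftpc at the top of the scale, and the other 4 markers gave 15.79 to 15.85 against 15.40 to 15.75. Mesothelial markers had the most negative median of the marker lists, -1.15, with all 3 negative and none called (12.80 to 13.59 against 13.52 to 14.59). That sum was dominated by Msln, at a mean of 13.23 against 13.89, with overlapping groups. The dimmer Upk3b and Wt1 were highest in wild-type array 4, at 7.91 and 7.79. In wild-type arrays 1 and 3 both lay within the range of the Fgf10 +/- arrays, Upk3b at 4.07 and 4.90 and Wt1 at 4.22 and 4.64. All 5 smooth muscle markers had a negative sign with none called (median -0.32, summed level 15.11 to 15.33 against 15.23 to 15.65). Fibroblast markers had a median of -0.18 with none of 6 called (15.80 to 16.17 against 15.94 to 16.47), endothelial markers -0.09 with none of 5 called (12.85 to 13.09 against 12.84 to 13.09), and platelet markers -0.35 with none of 5 called (11.06 to 12.09 against 11.95 to 12.34). The part of these cell types in the values of Itga5, Itgb5, Itgb3 and the ligands was not tested.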

How the data were processed

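Lung RNA was amplified with a low-input Agilent kit and labelled with Cy3, per the labels' protocols. The authors deposited log2 intensities of 8 arrays; limma appears in the submitters' processing notes without version or step. The 8 columns had nearly identical quantiles, as quantile-normalized values do, so they were used as deposited. The sources used here name no background correction. Arrays have no depth, and their number limits the precision.

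The platform annotation named 31465 features. For the 29050 of these matched by accession to RefSeq of GRCm38.p6 the RefSeq symbol was used, and for the rest the platform symbol. The 189 features with a missing value and those with a mean below the 30th percentile (2.76) were left out. Genes were tested with limma 3.58.1 in R 4.3.3 (lmFit, eBayes with a variance trend), two-sided, Fgf10 +/- minus wild-type. On simulated data for this comparison over 17234 genes it recovered 19.2% of changes of 0.5 and 51.0% of changes of 1 on the log2 scale, with 3.57% of calls false.

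The members and lists were chosen with earlier results of these data known, so counts over any list carry no test of their own. Named genes are the members, called genes and the 4 smallest unadjusted p-values of each pathway list, and Npnt, Tgfb1, Tgfb3, Fn1, Itgb8, Cd151, Plec, Tln1 and Fermt2. Fbn1, Itga2b, Itgad, Itgae and the markers Sftpc, Ager, Cd68, Csf1r, Msln, Upk3b and Wt1 were named after their values were seen. Alternatives covered features, filters, scaling, variance, array weights, replicate block, Xist and left-out arrays.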

Additional observations from a re-analysis of the deposited data

How the results depend on the processing

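None of the 10 members was called under any of the 19 alternatives; the smallest limma adjusted p was 0.106, for Itgb5 with a filter at the 50th percentile. Their median ranged from -0.27 to -0.18 with 1 array left out. Signs changed for Itgb3 (0.21 with the mean over all features), and, without Fgf10 +/- array 3 and wild-type array 1, a choice made after seeing the data, for Itga6 (-0.0012), Col17a1 (-0.0031) and Npnt (-0.11). With 1 array left out, Npnt ranged from -0.07 to 0.32, Itga6 from 0.0063 to 0.082 and Col17a1 from 0.03 to 0.64. Called ligands numbered 0 without the variance trend, 0 with Xist as a covariate, 1 with the replicate block, 1 without those 2 arrays, and 0 to 4 with 1 array left out. Called other integrins numbered 1 without those 2 arrays and 0 to 1 with 1 array left out, the gene being Itgax. Whether same-numbered arrays have anything in common beyond the number is unknown. Their deviations correlated between -0.06 and 0.07, but such a correlation can miss an effect shared by only some genes. With the replicate block 116 genes were called against 137. Over all genes, 1 was called without the variance trend, 80 with Xist, and 34 to 173 with 1 array left out, fewest without wild-type array 2. Changes of 0.5, larger than those of 9 members, were mostly missed on simulated data.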

Other observations

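Itga2b, the platelet alpha chain that pairs with Itgb3, was chosen here after its values were seen. It read 7.19 in wild-type array 2 and between 2.99 and 4.49 in the other 7 arrays, while Itgb3 in wild-type array 2 read 10.06, within the range of the other arrays. In Itga2b the gap from this array to the next wild-type array was a share of 0.763 of the range of that group, below the critical value of Dixon for 4 samples.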
